A study of Mus musculus with 66 samples.

Results

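BC57 is a mouse bladder cancer cell line. A harvested pellet was split, and 1 portion was snap-frozen (FF) while the other spent 24 hours in buffered formalin and was then embedded in paraffin (FFPE). The comparison described here takes the 3 FFPE and the 3 FF libraries that were made from 2 ng of total RNA with the Ovation SoLo kit, chosen by their titles. They are 6 of the 66 libraries of the series, and all 39179 genes of the Ovation count table were considered. Neither group carries a drug treatment or an engineered allele. The wider design crosses BC57 cells and normal mouse urothelium with preservation, kit and RNA input, and uses poly(A) libraries from 1 µg of FF RNA as its reference.

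RNA was extracted with different kits, RNeasy FFPE for the wax sections (10 slices of 5 µm) and RNeasy mini for frozen cells, per the labels' protocols. Fixation, embedding and extraction kit therefore cannot be told apart in any result below. Both groups go back to that 1 pellet, and nothing in the labels makes the 3 libraries of a group separate cultures, so every p-value measures only the spread between libraries, which may be technical. In bulk RNA, a change in the share of 1 class shifts the share of all others, and fewer cells of a type cannot be told apart from less RNA per cell.

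Formalin joins RNA to proteins and adds methylol groups to its bases, and RNA recovered from wax blocks is usually fragmented. Poly(A) capture therefore loses much of such RNA, whereas the Ovation chemistry primes total RNA at random sites and later removes ribosomal sequences by InDA-C, so that it also reads RNAs without a poly(A) tail. These include transcripts of RNA polymerase III, small nuclear and nucleolar RNAs, mitochondrial tRNAs and the mRNAs of replication-dependent histones.

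The genes with the largest rises included short structured RNAs, 8 of which are given here because the results return to them. Sequences are GENCODE M21 transcripts on mm10, 5′ to 3′, written as DNA. Capitals mark AATTTTT, a run of the kind bound by Sm proteins, in the minor spliceosomal RNAs U12 (Rnu12, chr15:83149644-83149794 (+ strand)) and U11 (Rnu11, chr4:132270080-132270213 (- strand)). In the box C/D RNAs U3 (Rnu3a, chr10:40258467-40258680 (+ strand)) and U8 (Snord118, chr11:69073427-69073561 (+ strand)), which act in ribosomal RNA processing, they mark TGATGA, the letters of box C. In the Y RNAs Rny1 (chr6:47788069-47788180 (- strand)) and Rny3 (chr6:47781624-47781725 (+ strand)), partners of the Ro60 protein, they mark the closing TTTT left by polymerase III termination. The mitochondrial tRNAs for alanine (mt-Ta, chrM:5018-5086 (- strand)) and asparagine (mt-Tn, chrM:5089-5159 (- strand)) have no marked letters.
Rnu12: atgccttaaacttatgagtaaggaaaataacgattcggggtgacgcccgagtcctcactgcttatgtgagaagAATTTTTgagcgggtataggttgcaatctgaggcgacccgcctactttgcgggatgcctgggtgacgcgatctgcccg
Rnu11: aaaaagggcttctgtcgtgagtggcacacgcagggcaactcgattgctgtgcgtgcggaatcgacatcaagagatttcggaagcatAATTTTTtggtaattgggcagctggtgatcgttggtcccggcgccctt
Rnu3a: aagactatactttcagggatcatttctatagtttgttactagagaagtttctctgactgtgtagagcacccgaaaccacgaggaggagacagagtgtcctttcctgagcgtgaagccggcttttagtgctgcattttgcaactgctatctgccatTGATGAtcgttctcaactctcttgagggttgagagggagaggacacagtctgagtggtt
Snord118: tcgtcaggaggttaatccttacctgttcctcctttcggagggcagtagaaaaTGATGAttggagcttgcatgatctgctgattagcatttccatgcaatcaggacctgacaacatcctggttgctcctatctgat
Rny1: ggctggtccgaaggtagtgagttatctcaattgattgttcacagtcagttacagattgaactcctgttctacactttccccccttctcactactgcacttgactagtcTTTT
Rny3: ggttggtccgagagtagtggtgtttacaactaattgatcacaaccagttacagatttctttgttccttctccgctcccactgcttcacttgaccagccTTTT
mt-Ta: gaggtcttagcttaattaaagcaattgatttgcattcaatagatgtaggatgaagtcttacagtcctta
mt-Tn: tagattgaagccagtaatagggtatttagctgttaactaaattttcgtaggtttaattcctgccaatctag
Motifs were searched on the transcript strand only, and none overlaps another. Of 6070 annotated small RNA transcripts of 50 to 350 nt, 1.83% held AATTTTT, 8.58% held TGATGA and 8.22% ended in TTTT. A match describes the letters and does not establish a binding site.

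The FF libraries held 2300831, 2169163 and 2266014 counts and the FFPE libraries 3816455, 3462913 and 4072971 counts, so depth separated the groups. Repeat libraries differed by more than sampling noise in all 6 pairs of a group, with a chi-square of 1.68 to 2.82 per degree of freedom. After thinning to the smallest library, 12644 to 12670 genes had at least 5 counts in FF and 13322 to 13377 in FFPE. The groups did not overlap (exact permutation test, two-sided, p = 0.1, the smallest that 3 against 3 libraries allow). Epithelial markers of the line were all read, and 7 of 9 fell, beside 15.6% of all genes tested. On the log2 values deposited by the authors, 5 of the 9 fell and 1 rose. Summed levels of 51 genes read in urothelium but not in BC57 poly(A) libraries, a list chosen after seeing the data, were 0.922 to 2.17 CPM (a gene's count scaled to library size) in FF and 3.41 to 4.04 CPM in FFPE, against 2447 to 2883 CPM in the urothelium libraries. Of the endothelial markers none passed the filter on low counts (3 of 8 had no count in any of the 6 libraries), nor did any erythroid marker. All 4 globin genes were at 0, and the heme enzyme gene Alas2 had 2 counts in FF and 68 in FFPE. Immune markers summed to 6.45 to 7.94 CPM in FF and 3.68 to 7.60 CPM in FFPE, with 5 of 10 at 0, fibroblast markers to 17.8 to 22.6 and 19.9 to 27.3 CPM, with 3 of 10 at 0, and smooth muscle markers to 21.2 to 26.5 and 29.7 to 37.5 CPM. The part of these markers in the results was not tested.

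The make-up of the libraries shifted between RNA classes. Nuclear protein-coding genes took 87.1%, 86.0% and 86.4% of the counts in the FF libraries and 73.2%, 73.1% and 73.9% in the FFPE libraries. Genes of the mitochondrial genome took 4.344%, 4.399% and 4.286% in FF and 12.6%, 13.1% and 12.1% in FFPE, 2.90 times as much on average. Small noncoding RNA genes rose from a mean share of 1.95% ± 0.0767 to 4.20% ± 0.189, and long noncoding RNA genes from 5.66% ± 0.564 to 7.96% ± 0.237 (SD, n = 3 libraries each). Replication-dependent histone genes went the other way, from 0.859% ± 0.0794 to 0.554% ± 0.0567. FF and FFPE values did not overlap for any of these 5 classes (exact permutation p = 0.1 for each). Gm42418, Gm26917 and Gm23935, genes that resemble ribosomal repeats, together took 4.22% ± 0.577 of FF and 5.87% ± 0.252 of FFPE counts. Gm23935 is annotated as a miRNA. The rise of the long noncoding share was not measured without Gm42418 and Gm26917.

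**Figure D1:**
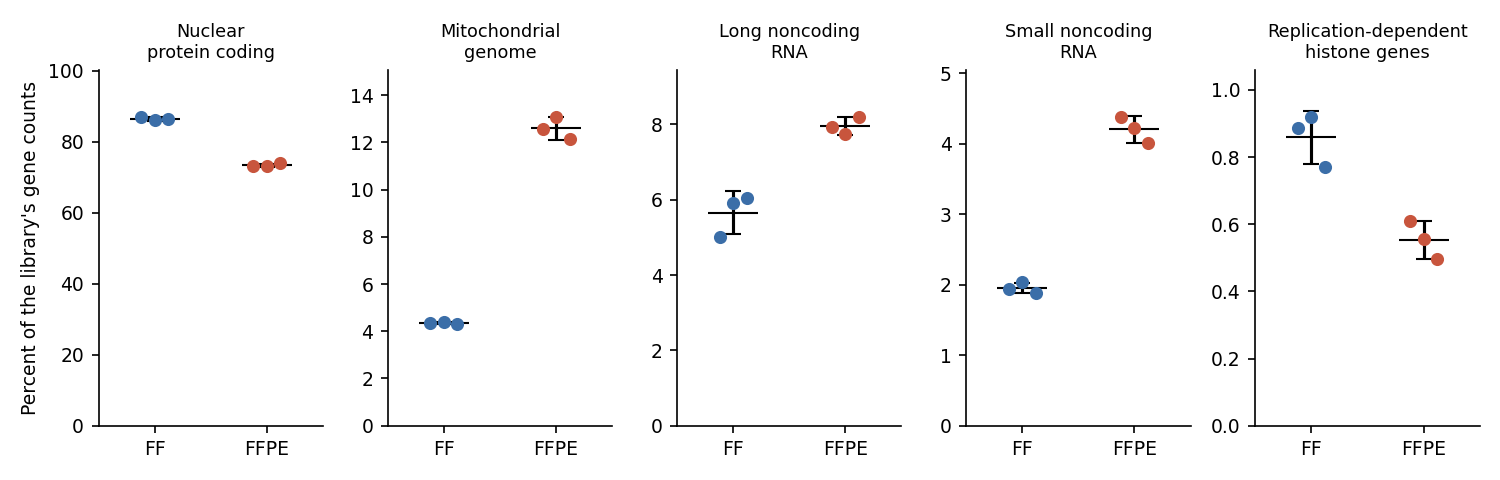
Percent of a library's gene counts (y axis, from 0) taken by 5 gene classes in the 3 FF and 3 FFPE libraries. Points are libraries, and bars give the mean and SD. The mitochondrial share lies between 4.286% and 4.399% in FF and between 12.1% and 13.1% in FFPE.

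Of 12127 genes tested, 3916 (32.3%) differed at an adjusted p under 0.05 in edgeR's quasi-likelihood test: 2019 rose (16.6%) and 1897 fell (15.6%). Large changes were mostly rises, since 750 genes rose and 101 fell by at least 2-fold, and 297 rose and 10 fell by at least 4-fold. With every library thinned to the depth of the smallest, 1827 genes rose and 1651 fell, and the mitochondrial share differed by 8.24 percentage points against 8.25 at full depth. Upper quartile scaling over the tested genes gave 2059 higher and 1822 lower. The authors' log2 values are scaled by the upper quartile of nonzero counts. On them limma called 4149 higher and 588 lower, and the median of all genes moved by 0.27. Directions of small changes therefore hold relative to the median gene under the trimmed-mean (TMM) scaling of counts used here.

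A list of RNA polymerase III transcripts and RNase RNAs, which also names the telomerase RNA Terc, rose in 9 of 10 tested cases. Its median log2 fold change was 2.58, against 0.00 over all genes tested. Of these 10, 3 passed the filter on low counts only with the help of FFPE libraries (30%, against 8.46% of all genes tested). Vaultrc5 was among them, so that the filter itself favoured a rise for it. Vaultrc5, a vault RNA, stood at 2.47, 2.21 and 4.25 CPM in FF and at 134, 141 and 116 CPM in FFPE (log2 fold change 5.42, SE 0.19, adjusted p = 1.24e-21). Rny1 stood at 78.3, 102 and 126 CPM in FF and at 1137, 1161 and 997 CPM in FFPE (3.43, SE 0.09). Rny3 rose from a mean of 99.8 to 662 CPM (2.73). In each case the lowest FFPE library lay several times above the highest FF library. Rmrp, the RNA of RNase MRP, rose by 1.46 and Rpph1, the RNA of RNase P, by 1.42. The exception was Rn7sk, the 7SK RNA that holds the elongation factor P-TEFb inactive, at 6692 CPM in FF and 7193 CPM in FFPE (0.10, adjusted p = 0.188). The 5S ribosomal RNA copies n-R5s193 and n-R5s124 rose by 4.89 and 4.36, and all 6 rRNA genes tested rose. Copies of 5S, 7SL and Y RNA genes are near-identical, so the split of reads among them is uncertain.

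**Figure D2:**
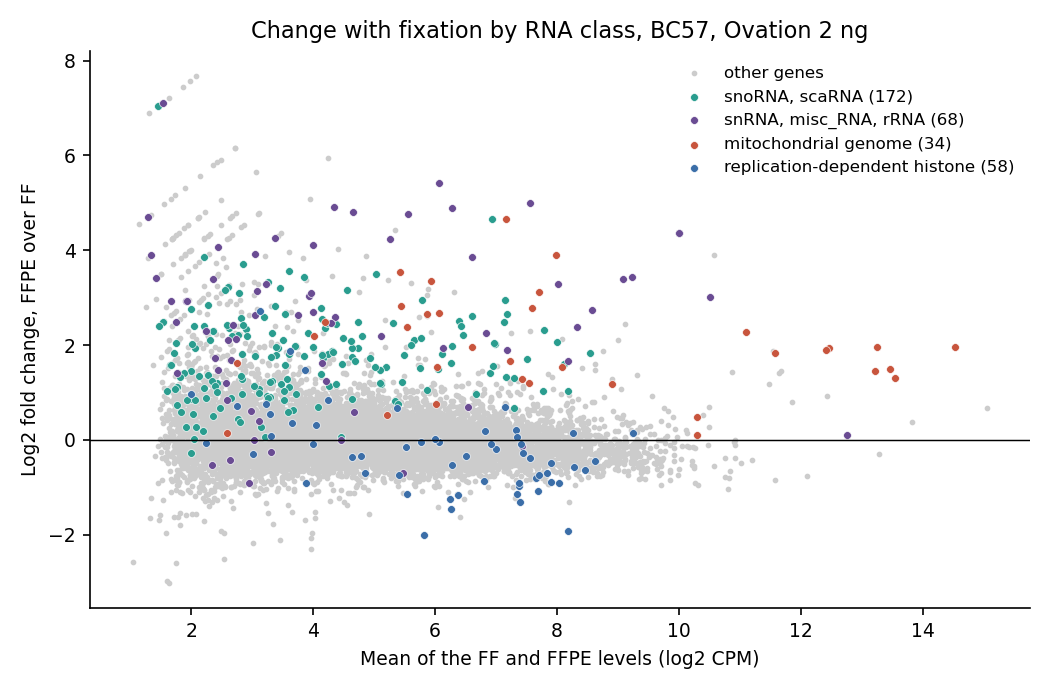
Log2 fold change of FFPE over FF (y axis) against the mean of both group levels in log2 CPM (x axis), 1 point per tested gene, coloured by class with the number of genes. SnoRNAs, spliceosomal and other small RNAs and mitochondrial genes lie mostly above 0, and histone genes spread to -2.02; points above 6 are mostly genes without counts in FF, whose fitted values depend on the prior count.

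Small nuclear RNAs rose in 28 of 32 tested cases and none fell (median 2.93), but 19 of the 32 reached the level needed for testing, 3.47 CPM in 3 libraries, only with the help of FFPE libraries. Rnu12 stood at 0.825, 0.885 and 2.13 CPM in FF and at 38.6, 40.2 and 39.7 CPM in FFPE (4.90, SE 0.30, adjusted p = 4.1e-15). Rnu11, its partner in recognising minor introns, was at 1.24, 0.885 and 0.851 CPM in FF and at 13.88, 11.96 and 21.03 CPM in FFPE (3.93, SE 0.42). FF levels of both were close to the limit of detection, while FFPE libraries read them clearly. Rnu5g, a copy of the U5 RNA shared by both spliceosomes, rose by 3.09 (SE 0.28). The name pattern used for spliceosomal RNAs, under which 6 of 8 tested genes rose, also caught copies of U3, which is nucleolar. Of these 8, 6 passed the filter only with the help of FFPE libraries.

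Small nucleolar and Cajal-body RNAs rose in 145 of 172 tested cases, none fell, and the median was 1.73. These 172 are those that passed the filter, out of 1525 in the table, of which 1027 had no count in the 6 libraries. Here too, 74 of the 172 passed the filter only with the help of FFPE libraries, so that the filter itself favoured a rise for these. Rnu3a stood at 5.36, 12.4 and 10.2 CPM in FF and at 244, 241 and 223 CPM in FFPE (4.67, SE 0.14, adjusted p = 1.44e-23). Snord118 rose from a mean of 5.25 to 60.4 CPM (3.51). Gm24826, an snoRNA among those 74, had no count in FF and 59 in FFPE. FFPE libraries lay above every FF library for 153 of the 172 genes, against 21.5% of all genes tested.

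Most mammalian snoRNAs are cut from introns of other genes, so host and snoRNA start as 1 transcript. For 70 tested snoRNAs and scaRNAs inside an intron of a tested host on the same strand, the small RNA rose in 62 cases with a median of 1.82. The 58 hosts had a median of -0.15, with 10 higher and 24 lower. In every one of the 70 pairs the small RNA had the larger log2 fold change, by a median of 1.96. Of these 70 small RNAs 37 passed the filter only with the help of FFPE libraries, as against 1 of the 58 hosts, so small RNAs that stayed low in FFPE could not be among the pairs. Hosts were assigned by position alone. Where introns of more than 1 gene held a small RNA, only 1 was kept, which need not be the gene it is cut from. Snora73a and Snora73b, box H/ACA RNAs, rose by 2.32 and 2.08. They were assigned to Rcc1, the exchange factor of the GTPase Ran, which rose by 0.34, and other possible hosts of this pair were not examined. Snord83b rose by 1.51 while its host Rpl3, a ribosomal protein gene, fell by 0.64. Gm25835 rose by 2.61 in Eif4a1, a translation initiation helicase gene that fell by 0.44. These 4 snoRNAs and their 3 assigned hosts were picked after their values were seen. The 96 snoRNAs and scaRNAs to which no host intron was assigned had a median of 1.46. Overlap with any annotated exon of the host, also of a retained-intron transcript, prevented an assignment. These 96 can therefore include intronic snoRNAs.

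**Figure D3:**
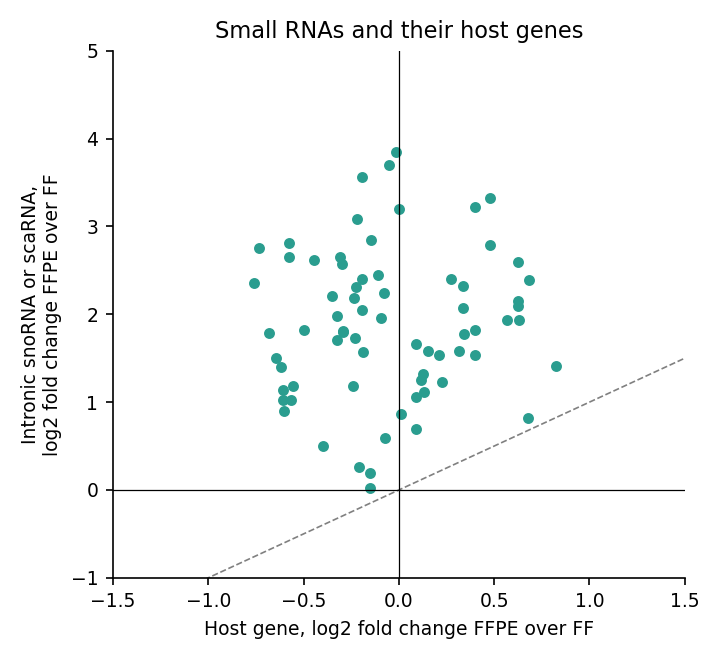
Log2 fold change of 70 intronic snoRNAs and scaRNAs (y axis) against that of the host gene assigned by position (x axis), FFPE over FF. The dashed line marks equal change, and all 70 points lie above it.

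Noncoding host genes kept for their snoRNAs also rose: 9 of 12 were called higher and none lower, with a median of 0.89. Snhg15 stood at 54.8, 49.6 and 53.6 CPM in FF and at 253, 244 and 257 CPM in FFPE (2.25, SE 0.09). Snhg3 rose by 2.12 (SE 0.08), and Gas5, which carries many box C/D snoRNAs and encodes no conserved protein, by 0.95.

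All 10 tested nuclear long noncoding RNAs rose (median 1.92). Of these 10, 2 passed the filter only with the help of FFPE libraries. Neat1, the scaffold of nuclear paraspeckles, stood at 181, 185 and 203 CPM in FF and at 2744, 2816 and 2986 CPM in FFPE. Malat1, an RNA of nuclear speckles, rose from a mean of 1271 to 4686 CPM (1.88, SE 0.05). Xist, which coats the inactive X chromosome, was at 176, 173 and 170 CPM in FF and at 883, 989 and 944 CPM in FFPE (2.44, SE 0.07). Within each gene the FF libraries differed little among themselves and the FFPE libraries lay far above them. Tsix, transcribed against Xist, rose by 2.61. Airn, which silences Igf2r in cis, had 3 counts in FF and 116 in FFPE, a ratio of 22.9. Its exact 95% counting interval, 7.66 to 113, leaves out the spread between libraries beyond counting noise. The use of strand in counting is not given in the sources used here, so reads of Tsix and Airn cannot be told apart from those of their antisense partners. Across biotypes, 70 of 160 lincRNA genes rose and 11 fell. Those over 3000 nt rose in 60.7% of 61 cases, against 27.3% of 22 under 1000 nt.

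Of 34 tested genes of the mitochondrial genome, 32 rose and none fell. This genome encodes 13 subunits of the respiratory chain, 2 rRNAs and the tRNAs that punctuate them, all cut from long transcripts of both strands. The rRNAs mt-Rnr1 and mt-Rnr2 both rose by 1.96. Among mRNAs, mt-Nd5 stood at 2363, 2311 and 2297 CPM in FF and at 8741, 9330 and 8756 CPM in FFPE (1.94, SE 0.05), and mt-Co1 rose by 1.49. Neighbours differed: mt-Nd4 rose by 1.83 and mt-Nd4l, whose gene overlaps it, by 2.49, while mt-Nd3, at 1203 CPM in FF and 1298 CPM in FFPE, did not pass the test (0.11, adjusted p = 0.152). Levels of mt-Co2, mt-Atp6 and mt-Co3 were far below those of mt-Co1. Reads shared with nuclear copies of mitochondrial sequence may make them uncertain, which was not tested.

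Mitochondrial tRNAs rose in 18 of 19 tested cases (median 2.18), with mt-Tf, at 5.74 CPM in FF and 6.34 CPM in FFPE, as the exception. The largest rise was that of mt-Ta, at 9.89, 13.3 and 9.79 CPM in FF and 308, 266 and 255 CPM in FFPE (4.65, SE 0.13, adjusted p = 1.17e-24). Beside it, mt-Tn stood at 32.2, 31.9 and 31.1 CPM in FF and at 518, 478 and 428 CPM in FFPE (3.90, SE 0.10), and mt-Tc rose by 3.11. The next gene of this cluster, mt-Ty, rose by only 0.49, from 1047 to 1469 CPM. The 9 genes annotated on the minus strand had a median of 2.68 and the 25 on the plus strand one of 1.66, a difference for which no test was run.

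**Figure D4:**
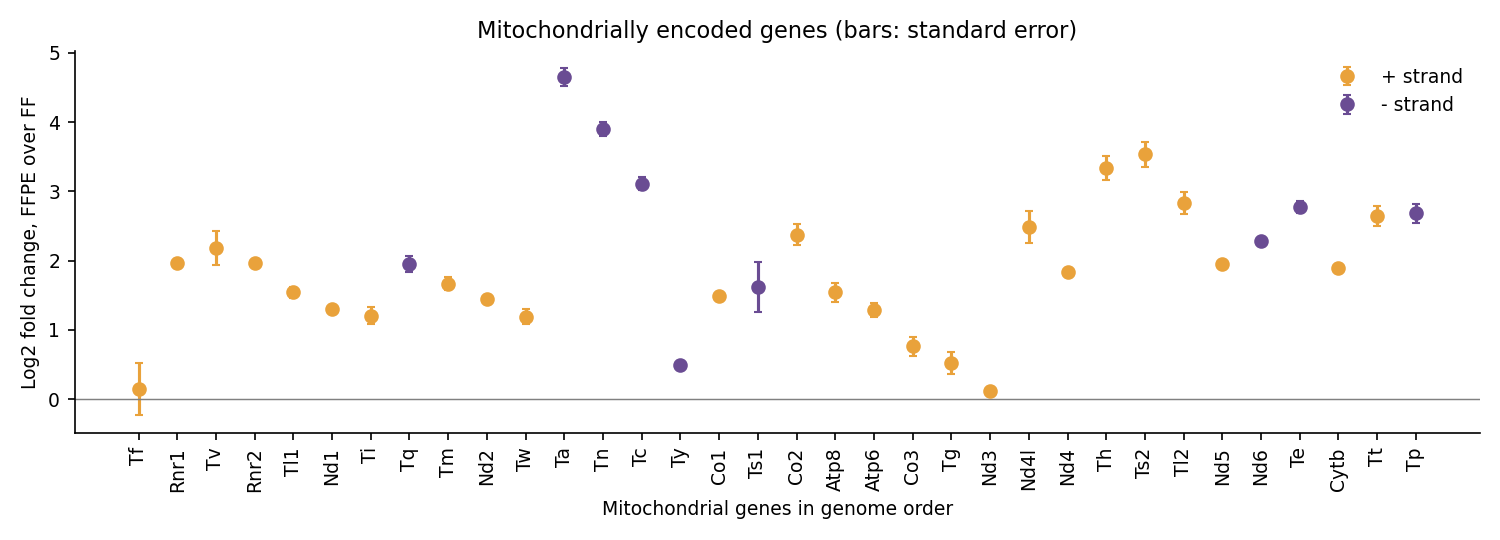
Log2 fold change of FFPE over FF (y axis, bars give the standard error) for the 34 tested mitochondrial genes in genome order (x axis), coloured by annotated strand. The cluster of mt-Ta, mt-Tn and mt-Tc reaches 3.11 to 4.65, and mt-Nd3 lies at 0.11.

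Replication-dependent histone genes, whose mRNAs end in a stem-loop in place of a poly(A) tail, were mostly lower in FFPE where called. Of 58 tested, 28 fell and 7 rose, with a median of -0.32, but on the authors' log2 values 20 fell and 15 rose with a median of -0.06. The largest decreases of any protein-coding gene called lower were those of Hist1h4n and Hist1h2ad. Hist1h4n stood at 463, 477 and 431 CPM in FF and at 140, 124 and 97.9 CPM in FFPE (-1.92, SE 0.09, adjusted p = 9.16e-19). Hist1h2ad stood at 102, 100.4 and 68.5 CPM in FF and at 22.49, 23.62 and 21.03 CPM in FFPE (-2.02, SE 0.15). All FFPE libraries lay below all FF libraries for both. By family, 5 of 5 linker H1 genes fell, as did 9 of 18 H2A, 6 of 15 H2B, 4 of 7 H3 and 4 of 13 H4 genes. Hist1h2ap, Hist1h2bq and Hist1h2br rose by 2.71, 1.88 and 1.47, and the last pair is annotated with 3 exons. Copies of 1 family share most of their coding sequence, so values of single copies are uncertain. Of 9 tested genes listed as histone variants with poly(A) tails, 3 rose and 2 fell, but on the authors' log2 values 6 rose and none fell. H3f3a (H3.3) stood at 0.91 and H2afx (H2A.X) at -0.28. H2afx was not called without FFPE library 3 (-0.21), FF library 1 (-0.24) or FF library 2 (-0.21). On the authors' log2 values it stood at -0.009 and was not called.

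Among protein-coding genes, 1491 of 10712 rose and 1741 fell, and the direction varied with transcript length. With a longest coding transcript of 2000 to 3000 nt, 7.73% of 2317 genes rose and 19.8% fell (median -0.10). Over 10000 nt, 66.0% of 262 genes rose and 2.67% fell (median 0.52). Under 1000 nt, 19.7% rose and 15.03% fell. Holding the genomic span at 20000 to 100000 bp, 55.4% of 101 genes with transcripts over 10000 nt rose, against 8.25% of 2025 with 2000 to 4000 nt. Holding the transcript at 2000 to 4000 nt, genes spanning over 200000 bp rose in 23.4% of 94 cases and those of 10000 to 50000 bp in 7.41% of 2631. Spearman's rho with the log2 fold change across genes was 0.20 for transcript length, 0.15 for span and -0.01 for GC content, a description since genes are not independent replicates.

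**Figure D5:**
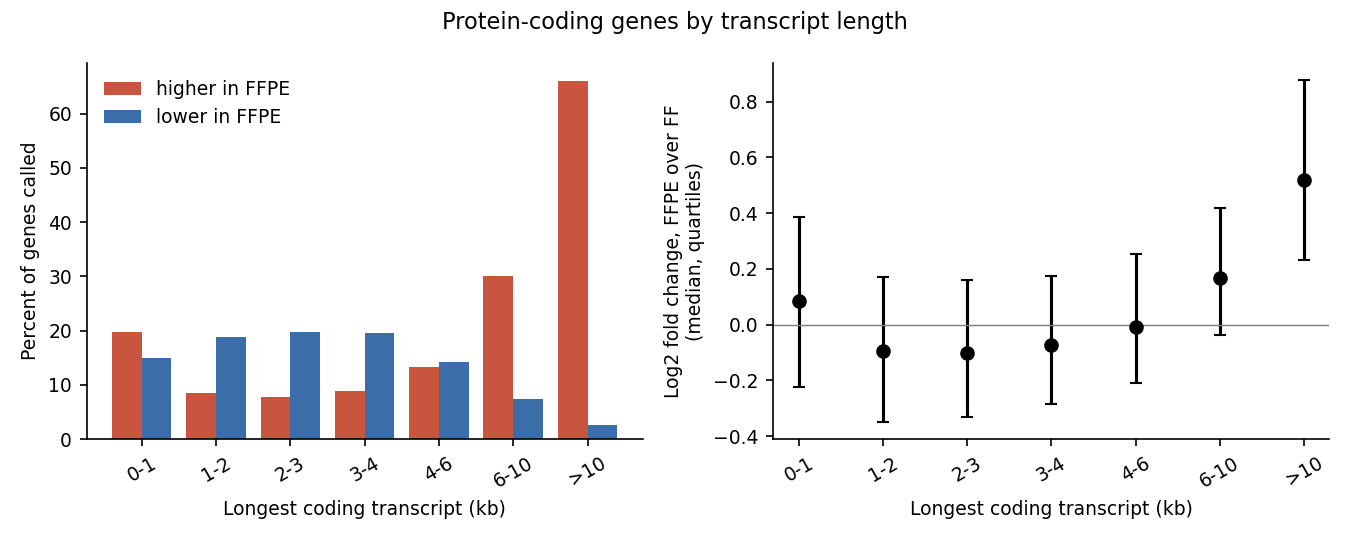
Left, percent of protein-coding genes called higher or lower in FFPE (y axis, from 0) by length of the longest coding transcript in kb (x axis). Right, median log2 fold change with quartiles. The share called higher is lowest at 2 to 3 kb (7.73%) and reaches 66.0% over 10 kb.

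Long-transcript chromatin regulators, a list with 34 tested members, had 24 that rose and 3 that fell (median 0.39). Kmt2d, Kmt2a and Kmt2c, methyltransferases of histone H3 lysine 4, rose by 1.40, 1.33 and 1.28. Kmt2a stood at 141, 124 and 146 CPM in FF and at 347, 348 and 340 CPM in FFPE, and the remodeller gene Chd2 rose by 1.02. Ttn, encoding the muscle protein titin, was at 4.95, 6.20 and 3.40 CPM in FF and at 50.0, 44.5 and 60.2 CPM in FFPE (3.41, SE 0.22). Chosen after its value was seen, Nfat5, a transcription factor of the osmotic response, rose from a mean of 196 to 593 CPM (1.60). Against the pattern, Usp15, a deubiquitinase gene, and Prep, a peptidase gene, fell by 0.57 and 0.65 with transcripts of 11525 and 10933 nt.

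Other protein-coding genes with large rises were read at a few CPM in FF. Slc16a4, a transporter gene of the monocarboxylate family, stood at 1.24, 0 and 1.70 CPM in FF and at 14.4, 21.2 and 25.7 CPM in FFPE (4.31, SE 0.43). Angpt2, a ligand of the receptor Tie2, rose by 3.83 and Spon1, an extracellular matrix protein gene, by 3.38. Lrrtm2, a synaptic adhesion gene, rose by 4.03, the hair keratin gene Krt87 by 3.45, the splicing regulator Rbm4b by 3.30, the complement protease Masp2 by 2.53 and the homeobox gene Hoxb5 by 2.30. Slc16a4, Angpt2, Lrrtm2, Krt87 and Masp2 did not reach the level needed for testing in every FF library. They passed the filter only with the help of FFPE libraries, so that the filter itself favoured a rise for them. Rbm4b was at 9.48, 10.6 and 6.81 CPM in FF and at 88.0, 89.3 and 88.3 CPM in FFPE, with little spread within FFPE. Among the decreases outside the histones, Leo1, of the PAF1 elongation complex, fell by 1.12, Aimp1, of the tRNA synthetase complex, by 1.08, and the zinc finger gene Zfp617 by 1.13.

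Many abundant mRNAs of basic cell functions were lower in FFPE, relative to the median gene under TMM scaling. Genes over 1000 CPM in BC57 poly(A) libraries fell in 70.6% of 85 cases (median -0.39), those of 100 to 300 CPM in 39.1% of 1767 (-0.16) and those of 10 to 30 CPM in 2.92% of 2877 (0.08). The medians fell along the same order. Power rises with counts, and its part in these shares was not tested. These bins were not computed on the authors' log2 values, on which the median of all genes moved by 0.27. Heat shock and chaperone genes fell in 23 of 28 cases and none rose (median -0.62), and on the authors' log2 values 20 fell and 2 rose (median -0.36). Hsp90aa1, the inducible cytosolic HSP90, stood at 2375, 2281 and 2580 CPM in FF and at 1158, 1121 and 1264 CPM in FFPE (-1.03, SE 0.06, adjusted p = 2.81e-16). Hsp90ab1, Hsp90b1 and the mitochondrial chaperonin gene Hspd1 fell by 0.84, 0.95 and 0.82.

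Translation factor genes fell in 30 of 37 cases and rose in 2 (median -0.44), but on the authors' log2 values 19 fell and 3 rose (median -0.17). Eif3c, a subunit of the scaffold of initiation, stood at 828, 848 and 865 CPM in FF and at 489, 467 and 490 CPM in FFPE (-0.81, SE 0.06). Eif4a2, a paralogue of the helicase Eif4a1, rose by 1.36, from 330, 324 and 411 CPM to 935, 939 and 867 CPM. Proteasome subunit genes fell in 24 of 37 cases and none rose (median -0.41), with Psmd12 at -0.76, but on the authors' log2 values 11 fell and 3 rose (median -0.16). Cytosolic ribosomal protein genes were split, with 31 lower and 19 higher of 80 (median -0.06, but 0.21 on the authors' log2 values). Rpl4 fell by 0.74 and Rpl3 by 0.64. Of 76 mitochondrial ribosomal protein genes 17 fell and 6 rose (median -0.13, but 0.14 on the authors' log2 values). Of 77 nuclear genes of oxidative phosphorylation 19 fell (24.7%) and 14 rose (18.2%), beside 15.6% and 16.6% of all genes tested. Their median was 0.05, but on the authors' log2 values 6 fell and 36 rose (median 0.31). Atp5b fell by 0.68 and Cox8a rose by 1.01.

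Glycolysis genes fell in 11 of 15 cases and none rose (median -0.39), but on the authors' log2 values 4 fell and 1 rose (median -0.13). Gapdh, often used as a reference gene, stood at 1845, 1916 and 1664 CPM in FF and at 1280, 1236 and 1212 CPM in FFPE (-0.54, SE 0.06). Actb, another reference gene, fell by 0.30 (SE 0.04), but its change was -0.03 (adjusted p = 0.62) on the authors' log2 values. Keratin and epithelial junction genes fell in 13 of 24 cases and none rose (median -0.31), but on the authors' log2 values 6 fell and 5 rose (median -0.05). Krt18 stood at 1645, 1696 and 1504 CPM in FF and at 913, 830 and 820 CPM in FFPE (-0.92, SE 0.06), and its partner Krt8 fell by 0.84. Cell cycle genes fell in 15 of 30 cases and rose in 1 (median -0.27, but 0.00 on the authors' log2 values), including the replication genes Mcm6 (-0.69) and Pcna (-0.62). Splicing factors of the SR and hnRNP families were split, with 17 lower and 9 higher of 48 (median -0.09, but 0.17 on the authors' log2 values): Hnrnpu fell by 0.71 and Rbm25 rose by 0.87.

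Of 19 immediate early genes 6 rose and 1 fell (median 0.23), with the AP-1 subunit gene Fosb at 18.1, 22.1 and 21.7 CPM in FF and 44.1, 52.5 and 50.6 CPM in FFPE (1.25, SE 0.15). Egr1, a zinc finger factor of the same response, rose by 0.62. Of 15 hypoxia genes 1 rose, Ddit4 (0.39, adjusted p = 0.0451), which was not called without any 1 of 5 of the 6 libraries (0.32 to 0.40). Of 10 p53 targets 3 rose and 1 fell, of 11 interferon genes 1 rose (Rsad2) and 1 fell (Ifit1), 9.09% each beside 16.6% and 15.6% of all genes tested, of 19 cholesterol synthesis genes 5 fell (median -0.15, but 0.09 on the authors' log2 values), and of 264 zinc finger genes named Zfp 44 rose (16.7%, beside 16.6% of all genes tested) and 20 fell. Rsad2 (1.08) was not called in DESeq2 (1.09), without FFPE library 3 (0.86) or without FF library 2 (0.72). Ifit1 (-1.05) was not called in DESeq2 (-1.05) or without any 1 of the 6 libraries (-1.20 to -0.85). Among the 10 tested genes that mark the line itself, Hmga2, a chromatin protein gene, rose by 0.46, and Msln, which encodes mesothelin, fell by 0.23, though it stood at 0.0351 on the authors' log2 values and was not called without FFPE library 2 (-0.19).

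RNA of the same line and preservation was also sequenced at lower input and with another kit. With Ovation at 250 pg, 1070 of 12379 genes rose (8.64%) and 822 fell (6.64%), 15.3% called in all, and at 50 pg 311 of 12160 rose (2.56%) and 171 fell (1.41%), 3.96% in all. Mitochondrial mRNA genes had medians of 1.69 at 250 pg and 1.58 at 50 pg, beside 1.54 at 2 ng, and histone genes -0.25 and -0.41 beside -0.32. In a test of the difference between the FFPE effects at 2 ng and 250 pg, 1 of 13275 genes passed (0.00753%), and 680 had an unadjusted p under 0.05. It was Gm23935, annotated as a miRNA, with a change of 1.19 at 2 ng and 0.53 at 250 pg (difference 0.66, SE 0.10, adjusted p = 0.00187). With SMARTer at 2 ng, FFPE library 3 held 151 CPM of the genes read only in urothelium, against 3.25 and 3.62 CPM in the other FFPE libraries. That comparison gave 1189 genes higher (9.25%) and 1102 lower (8.57%) of 12859, 17.8% in all, with this library. Without it, 1318 were higher and 1169 lower (8.87%) of 13175, 18.9% in all. FF library 3 held 19.9 CPM of the same genes, and no comparison was made without it. Without FFPE library 3, all 13 mitochondrial mRNA genes rose (median 1.78), as did 129 of 157 snoRNA and scaRNA genes (2.07) and 22 of 34 chromatin regulators (0.42). Of 58 histone genes 16 fell and 5 rose in it (median -0.13). Hist1h4n stood at 0.15 there (adjusted p = 0.668) and Hist1h2ad at -0.48 (adjusted p = 0.517), neither called, beside -1.92 and -2.02 with Ovation.

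Urothelium, taken from 9 mice and fixed by the same protocol, differed from BC57 in part of the genes. With Ovation at 2 ng its FFPE libraries had 2582 higher (19.3%) and 2393 lower (17.9%) of 13354 genes, 37.3% in all. The test of the difference between both FFPE effects called 857 of 14527 genes (5.9%), with the BC57 value above that of urothelium for 619 (4.26%) and below for 238 (1.64%). Mitochondrial tRNAs had larger BC57 values in 18 of 21 cases (median difference 2.01), mitochondrial mRNAs in 9 of 13 (0.98) and both rRNAs (1.34). In urothelium, mitochondrial mRNAs had a median of 0.42. Histone genes had less negative BC57 values in 16 of 58 cases (0.84), with 25 of 31 falling in urothelium (median -1.45). Chaperone genes followed with 12 of 28 (0.34) and keratin and junction genes with 11 of 25 (0.52). Small nuclear RNAs went the other way, with 11 of 40 lower and 2 higher in BC57 (median difference -1.19).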

How the data were processed

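RNA sequencing was deposited as count tables. The authors aligned reads to mm10 with STAR, used SAMtools and counted reads per gene with featureCounts, as listed without versions in the submitters' processing notes. Protocols in the labels describe paired 100 nt reads from strand-specific kits. The annotation release is not given in the sources used here, nor is the strand setting of the counting. The deposited log2 values are the authors' counts scaled by the upper quartile of nonzero counts, and served as an alternative.

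Symbols, biotypes, lengths and sequences came from GENCODE M21, which matched 37693 of 39179 genes. Genes passing filterByExpr entered edgeR 4.0.16 (R 4.3.3), with TMM scaling and a quasi-likelihood fit on only the groups compared; p-values were adjusted by Benjamini-Hochberg over all genes tested. Levels are CPM after TMM scaling; summed marker levels are CPM of total counts. Each standard error is the log2 fold change divided by the root of its F statistic. Thinning to 2169163 counts used seed 23. Lists are described by counts and medians, with no list test. A set of 51 urothelium genes had 0 counts in BC57 poly(A) libraries and at least 20 CPM in urothelium.

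Named genes were, per direction, the 12 protein-coding and 8 other genes of largest fold change with an adjusted p under 0.05, separate libraries, at least 20 CPM in the higher group leaving out provisional symbols such as Gm and Rik names; up to 4 members per list; Gapdh and Actb; and 5 genes per direction for each difference. Further genes (Nfat5, Usp15, Prep, Gas5, Rmrp, Rpph1, Rn7sk, Rny3, single snoRNAs, histones and mitochondrial genes) were picked after their values were seen. Members and lists were chosen with earlier results of these data known. Alternatives were RLE and upper quartile scaling, DESeq2 1.42.0, limma 3.58.1 on the log2 values, other filters, thinning, leaving out each library and a block on the replicate number. The scripts were tested on simulated data.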

Additional observations from a re-analysis of the deposited data

Results flagged for a closer look

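The fixation effect differed between BC57 cells and urothelium for 857 genes in the edgeR test of the difference. In BC57 minus urothelium terms, the 5 largest positive differences were those of Sytl1 (5.51), Dnase1l2 (4.98), She (4.86), Zfp750 (4.71) and Hist1h4m (4.49). Sytl1, Dnase1l2 and She had no count in BC57 FF, so their fitted differences depend on the prior count, and their BC57 FFPE levels were 1.14, 0.952 and 1.64 CPM. Zfp750 was barely read in BC57 as well, at 0.140 CPM in FF and 2.91 CPM in FFPE. Hist1h4m stood at 7.10 CPM in FF and 11.7 CPM in FFPE of BC57, and at 32.1 and 2.26 CPM in urothelium. Leaving out BC57 FF library 1, 2 or 3 took Dnase1l2 (5.01 in each case) and She (4.88 to 4.89) above the threshold of 0.05, as did leaving out FFPE library 2 for Dnase1l2 (4.51) and FFPE library 1 for She (4.57). At equal depth neither Dnase1l2 (4.22, adjusted p = 0.108) nor She (3.89, adjusted p = 0.106) was called.

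The 5 largest negative differences were those of Gm24871 (-4.31), Rnu5g (-3.88), B930036N10Rik (-3.72), Gm26316 (-3.24) and Gm23287 (-3.13), 4 of them annotated as snRNA. In urothelium FF all 5 stood at only 0.179 to 1.71 CPM, close to the limit of detection, so the sizes of these differences are uncertain. Gm26316 stood at 181 CPM in FF and 164 CPM in FFPE of BC57, and at 1.503 and 12.95 CPM in urothelium. Gm23287 was not called without BC57 FF library 3 (-3.00), urothelium FF library 2 (-2.67) or urothelium FF library 3 (-2.57), nor in DESeq2 (-3.39, adjusted p = 0.101) or at equal depth (-2.77, adjusted p = 0.065). Between 2 ng and 250 pg, Gm23935 differed by 0.66.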

How the results depend on the processing

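On the authors' log2 values limma called 4149 genes higher and 588 lower, and Msln changed sign (0.0351). No other alternative moved the 3916 calls by over 1.5 times. Leaving out 1 library gave 3313 to 3625 calls (1732 to 1924 higher, 1510 to 1723 lower), and 672 to 823 for the difference from urothelium (496 to 603 higher, 162 to 220 lower). Without 1 library the 2 ng minus 250 pg difference held 1 to 3 calls (1 to 2 higher, 0 to 1 lower); DESeq2 gave 2 (1 lower) and no filter 9 (7 higher, 2 lower). A replicate block gave 4085 calls, and 2 (1 lower) for that difference. Same-numbered libraries correlated at 0.04, 0.00 and 0.09 in their deviations, and differently numbered ones at -0.08 to 0.05. With 3 libraries per group these values cannot settle whether the numbers stand for a shared batch. The excess of detected genes in FFPE, 699.3 at equal depth, was 2033 without thinning, an alternative chosen after seeing the data, 141.7 among tested genes, and 687 to 714.5 without 1 library. The share of pseudogene and other counts (0.0304 points higher in FFPE) became -0.0369 among tested genes and ranged from -0.00134 to 0.0646 without 1 library. Without 1 library, the FFPE minus FF shares ranged from 1.98 to 2.49 points for long noncoding, 8.00 to 8.48 for mitochondrial, -13.4 to -12.8 for protein-coding, 2.16 to 2.35 for small noncoding and -0.350 to -0.275 for histone genes. The cause of these shifts was not tested. Of 132 called named genes, 118 kept their call under every alternative that tested them. FF depth limits genes read at a few CPM.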
